A study of Mus musculus with 11 samples.

Results

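The 52 genes described here encode the working parts of the lysosome. They comprise 12 glycosidases (the amidase Aga counted among them), 5 sulfatases, 7 proteins of lipid breakdown, 14 proteases, 2 acid phosphatases, 6 membrane proteins, 5 subunits of the proton pump and the transcription factor Tfeb. A gene was taken from the array table when a probe set carried it as its only symbol in the platform annotation. All 52 had such a probe set, and all 52 passed the filter on low values, out of 16147 genes tested and 19937 genes with a probe set of 1 symbol.

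The lysosome is an acidic compartment in which proteins, lipids, glycans and glycosaminoglycans are taken apart by hydrolases that reach it through the secretory pathway. Its low pH is kept by a vacuolar ATPase that pumps protons across the membrane, and membrane glycoproteins and transporters protect that membrane and release the products. Tfeb and its relatives bind a CACGTG-centred element in the promoters of many of these genes and raise their transcription. In fibroblasts the same enzymes also turn over collagen and proteoglycans taken up from the matrix.

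The cells were mouse embryonic fibroblasts of C57BL/6 x 129/SvJ background, homozygous for a p53 allele silenced by a removable stop cassette (p53 LSL/LSL). All groups were infected with an adenovirus carrying Cre (AdenoCre, multiplicity of infection 5) for 24 h, which removes the cassette and restores p53. Transfection followed, and doxorubicin, a DNA-damaging drug, was added 24 h later at 150 nM and left for 12 h. By the conditions listed for the samples, only the transfected oligonucleotide differed between groups. Whether the siRNA and ASO arms were handled together is not among those conditions. The groups were a control siRNA with 3 arrays, an siRNA against p53 with 3 arrays, a control antisense oligonucleotide (ASO) with 2 arrays and ASO against the long intergenic non-coding RNA Pint with 3 arrays. No group without p53 restoration or without doxorubicin was among the 11 arrays, so every value refers to damaged, p53-restored cells, and the Pint ASO was a pool per the methods of the study.

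Values are log2 intensities, so a difference of 1 is a factor of 2 and the level of 1 probe set cannot be set against that of another. Each change is the mean of a knockdown minus the mean of its own control, with the standard error (SE) of a linear model fitted with limma to all 11 arrays. A gene was called when its Benjamini-Hochberg adjusted p, taken over all probe sets tested, was under 0.05. The study asked which genes answer to Pint and which to p53, and each knockdown was therefore set against its own control before their effects were compared. Array medians lay between 7.31 and 7.38, and arrays of 1 group correlated at 0.991 to 0.995. The probe set for Pint fell from 10.32 ± 0.13 (SD, n = 2) to 8.54 ± 0.06 (SD, n = 3) with the Pint ASO. It was also called lower with the p53 siRNA, at -0.54 (SE 0.11, adjusted p = 0.00673), and higher in the control ASO than in the control siRNA, at 0.71 (SE 0.12, adjusted p = 0.0137). The p53 transcript was not analysed here, so the p53 knockdown was not checked on its target. All 12 fibroblast markers examined had means above a log2 value of 6 in all 4 groups, as did 8 to 10 of 13 macrophage and blood markers depending on the group, while the pan-leukocyte marker Ptprc and the macrophage marker Adgre1 were under the limit for testing.

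Promoter sequence was examined because Tfeb and its relatives act through it. RefSeq promoter windows (GRCm38.p6, 250 bases before to 50 bases after a transcription start) were held for 45 of the 52 genes. The hexamer CACGTG, which is its own reverse complement and thus covers both strands, stood in a window of 16 of them (35.6%), against 8.09% of all 27025 genes with a window. The longer palindrome TCACGTGA, which contains CACGTG, stood in windows of 7 (15.6%), against 1.12% of all genes. The half-site consensus of p53 was found in windows of 5 (11.1%; Gusb, Hexa, Lgmn, Smpd1 and Tpp1), against 9.55% of all genes. Shown first are the 7 genes with the longer palindrome, because only 2 of them were called lower with the Pint ASO, and then 3 genes with the hexamer alone that were called lower. Each run has 30 bases, 5′ to 3′ on the strand of the gene, with the motif in capitals.
Atp6v0d1: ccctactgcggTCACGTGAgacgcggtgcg
Atp6v1a: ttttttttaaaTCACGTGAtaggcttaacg
Ctsa: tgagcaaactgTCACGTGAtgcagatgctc
Dpp7: ccgccagactaTCACGTGAtgctgccccgc
Mcoln1: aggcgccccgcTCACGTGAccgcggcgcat
Ctsd: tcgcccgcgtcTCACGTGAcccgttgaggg
Gla: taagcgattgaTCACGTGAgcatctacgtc
Ctsf: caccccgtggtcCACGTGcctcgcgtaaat
Lgmn: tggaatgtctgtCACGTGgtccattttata
Naglu: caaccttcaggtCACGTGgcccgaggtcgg
These runs lie at chr8:105566050-105566079 on the minus strand for Atp6v0d1, chr16:44139373-44139402 on the minus strand for Atp6v1a, chr2:164833749-164833778 on the plus strand for Ctsa, chr2:25356388-25356417 on the minus strand for Dpp7 and chr8:3500462-3500491 on the plus strand for Mcoln1. The others lie at chr7:142387908-142387937 on the minus strand for Ctsd, chrX:134601215-134601244 on the minus strand for Gla, chr19:4855074-4855103 on the plus strand for Ctsf, chr12:102439124-102439153 on the minus strand for Lgmn and chr11:101070009-101070038 on the plus strand for Naglu. Ctsa and Gla each held the palindrome at 2 places, and 1 is shown. A match is a run of letters and not a measured binding site. The positions given further on are the spans of whole genes in the same RefSeq build.

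Depletion of Pint lowered most of the lysosomal genes, and depletion of p53 lowered a smaller number. With the Pint ASO, 33 of the 52 genes (63.5%) were called lower, where 13.9% of all genes tested were, and 1 (1.92%) was called higher, where 11.3% of all genes were. The median change was -0.31, against 0.012 over all genes tested. In 41 of the 52 genes every Pint ASO array lay below every control ASO array, a pattern shown by 25.1% of all genes. Taken array by array, 47, 46 and 43 of the 52 genes lay below the control ASO mean in the 3 Pint ASO arrays, against 47.8%, 52.6% and 45.0% of all genes tested. The lower levels were thus present in each of the 3 arrays and did not rest on a single one. In a fit of the ASO groups alone, 16 of the 52 genes were called lower, where 5.46% of all genes were. Of 12 fibroblast markers, 9 were also called lower with the Pint ASO, and in a bulk sample fewer cells of a type and less RNA per cell cannot be told apart.

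After p53 depletion, 10 genes (19.2%) were called lower and 4 (7.69%) higher, where 10.6% of all genes were called lower and 10.6% higher. After centring arrays on their medians the split was 6 lower and 4 higher, where 8.34% of all genes were lower and 11% higher. After a further quantile normalization it was 11 lower and 8 higher, where 10.3% of all genes were lower and 12.7% higher. The median change was -0.024, against 0.023 over all genes. Every p53 siRNA array lay below every control siRNA array in 21 of the 52 genes (40.4%), against 20.3% of all genes. Without control siRNA replicate 1 or 3 the lower calls numbered 6, where 7.89% and 7.81% of all genes were called lower. Without control siRNA replicate 1 or p53 siRNA replicate 3 the higher calls numbered 2, where 7.99% and 7.8% of all genes were called higher. In the single arrays 32, 31 and 29 of the 52 genes were below the control siRNA mean, against 45.3%, 48.6% and 41.2% of all genes tested. The plot of changes by role shows the 2 knockdowns side by side for every gene.

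**Figure D1:**
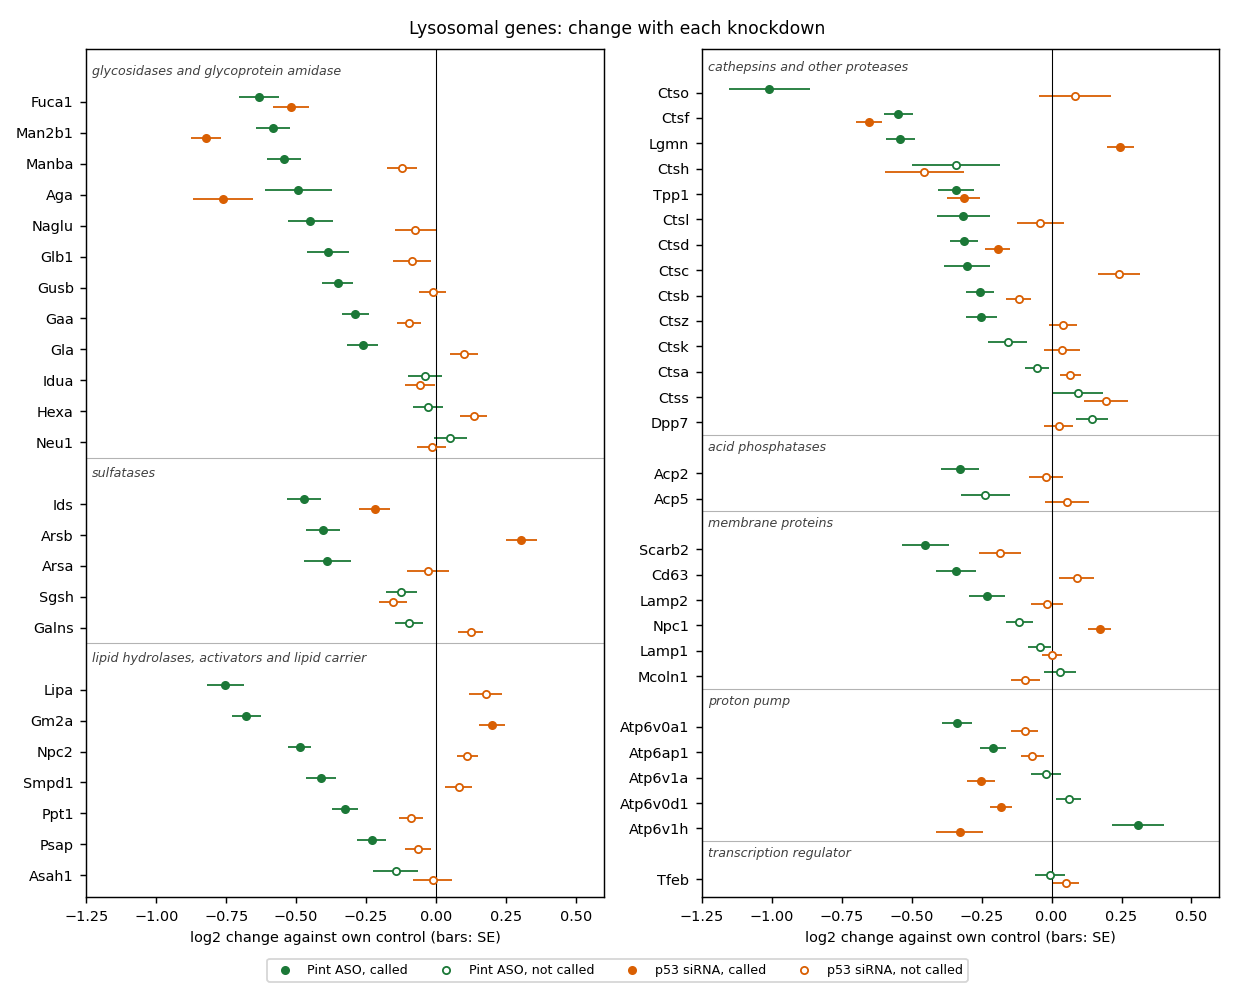
Change of each of the 52 lysosomal genes against its own control on the log2 scale (x axis), grouped by role and ordered by the change with the Pint ASO (green) above the change with the p53 siRNA (orange). Filled points passed the test at an adjusted p under 0.05, open points did not, and bars are the SE; green points lie left of 0 for 46 genes, from -1.01 for Ctso to 0.31 for Atp6v1h, while orange points lie left of 0 for 31.

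The 2 knockdowns together sorted the genes as follows. Lower with both were Fuca1, Man2b1, Aga, Ids, Ctsd, Ctsf and Tpp1, 7 in all. Another 23 were called lower with the Pint ASO and did not pass the test with the p53 siRNA. Arsb, Gm2a and Lgmn were called lower with the Pint ASO and higher with the p53 siRNA. Atp6v1h was called in the opposite sense, lower with the p53 siRNA and higher with the Pint ASO. Atp6v0d1 and Atp6v1a were called lower, and Npc1 higher, with the p53 siRNA alone, and 15 genes were called with neither. How many of all genes tested fall into each of these classes was not counted, so the class sizes have no background to be read against. The siRNA and the ASO comparisons have no array in common.

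The difference between the effects was tested in the same fit as the Pint change minus the p53 change. It was called negative for 19 of the 52 genes (36.5%), where 12.4% of all genes were, and positive for 2 (3.85%), where 11.7% of all genes were. The median difference was -0.20, against -0.0046 over all genes tested. Without control ASO replicate 2 the negative calls numbered 12, where 10.5% of all genes were called negative. The genes with the largest differences are described with their roles.

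The lysosomal genes also stood somewhat lower in the control ASO than in the control siRNA. Man2b1, Manba, Gusb, Gm2a and Ctsf, 5 of the 52 genes, were called lower in that comparison, where 2.14% of all genes were, and the median was -0.076, against -0.0022 over all genes. In limma none of the 52 was called higher, where 2.67% of all genes were, and 1 had an unadjusted p under 0.05 in that direction; with a trend in the variance 1 was called. In a fit of these 2 groups alone none of the 5 passed the test, but that fit called only 0.0929% of all genes lower. Only the call for Ctsf was kept whichever single array was left out. The control oligonucleotides differ in chemistry and in sequence, and these and any difference in handling between the arms cannot be told apart here. The control ASO arrays enter both this comparison and that of the Pint ASO, so the 5 values are given beside the knockdown changes.

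The glycosidases, which trim sugars from glycoproteins, glycolipids and glycosaminoglycans, were lowered by the Pint ASO in 9 of 12 cases, with a median of -0.37. Fuca1 (probe set 10509127, chr4:135920726-135940300), the alpha-L-fucosidase, read 11.56, 11.42 and 11.49 in the control siRNA, 10.88, 10.98 and 11.06 in the p53 siRNA, 11.20 and 11.25 in the control ASO and 10.53, 10.69 and 10.56 in the Pint ASO arrays. Neither knockdown overlapped its control. The change was -0.52 (SE 0.064, adjusted p = 0.000447) with the p53 siRNA and -0.63 (SE 0.072, adjusted p = 0.000367) with the Pint ASO, that is 69.8% and 64.5% of control.

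Man2b1 (probe set 10573583, chr8:85082730-85098739), the lysosomal alpha-mannosidase, had the largest p53 change of the 52 genes. Its arrays read 12.45, 12.46 and 12.49 in the control siRNA and 11.64, 11.63 and 11.66 in the p53 siRNA, then 12.10 and 12.16 in the control ASO and 11.52, 11.66 and 11.47 in the Pint ASO. The p53 siRNA arrays were well below their controls, and the Pint ASO arrays were below theirs, although the control ASO itself was lower than the control siRNA. The changes were -0.82 (SE 0.054, adjusted p = 1.11e-05) with the p53 siRNA, -0.58 (SE 0.061, adjusted p = 0.000236) with the Pint ASO and -0.33 (SE 0.061, adjusted p = 0.0182) between the controls. The difference between the effects of the knockdowns, 0.24 (SE 0.081), did not pass the test (adjusted p = 0.0759).

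Aga (probe set 10571774, chr8:53511683-53523422), which cleaves the bond between asparagine and the first sugar of a glycoprotein, read 11.92, 11.72 and 11.84 in the control siRNA, 10.90, 11.19 and 11.11 in the p53 siRNA, 11.61 and 11.45 in the control ASO and 11.13, 11.16 and 10.83 in the Pint ASO. Both knockdowns lay below their controls without overlap, and the spread in the Pint ASO arrays was wide. The change was -0.76 (SE 0.11, adjusted p = 0.000996) with the p53 siRNA and -0.49 (SE 0.12, adjusted p = 0.0187) with the Pint ASO. The latter was lost without control ASO replicate 1 and in a fit of the ASO groups alone.

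Manba (probe set 10496302, chr3:135485611-135571404), the beta-mannosidase that acts after Man2b1 in glycan breakdown, read 9.05, 8.997 and 9.09 in the control siRNA, 8.90, 8.93 and 8.95 in the p53 siRNA, 8.83 and 8.73 in the control ASO and 8.29, 8.29 and 8.14 in the Pint ASO. The Pint ASO arrays were clearly lowest, and the p53 siRNA arrays lay just under their controls. The Pint change was -0.54 (SE 0.062, adjusted p = 0.000375), the p53 change -0.12 (SE 0.055, adjusted p = 0.184), and the difference -0.42 (SE 0.083, adjusted p = 0.00643); between the controls it was -0.27 (SE 0.062, adjusted p = 0.0456).

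Of the other glycosidases, 5 were called lower with the Pint ASO and not with the p53 siRNA. These were Naglu, which acts on heparan sulfate, at -0.45, the beta-galactosidase Glb1 at -0.39, the beta-glucuronidase Gusb at -0.35 (-0.27 between the controls), the acid alpha-glucosidase Gaa, which degrades glycogen, at -0.29 and the alpha-galactosidase Gla at -0.26. Their changes with the p53 siRNA ranged from -0.096 for Gaa to 0.099 for Gla. The difference between effects passed the test for Gla, Gusb and Naglu, but for Naglu this was lost under 16 of 22 alternatives. Hexa, the alpha subunit of beta-hexosaminidase, Idua, an iduronidase, and the sialidase Neu1 were called in neither comparison, with Pint changes of -0.028, -0.038 and 0.051.

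Among the sulfatases, which remove sulfate groups from glycosaminoglycans and sulfatides, Ids, Arsb and Arsa were called lower with the Pint ASO. Arsb (probe set 10406663, chr13:93771679-93943016), which acts on dermatan sulfate, read 11.40, 11.34 and 11.39 in the control siRNA, 11.73, 11.67 and 11.65 in the p53 siRNA, 11.15 and 11.31 in the control ASO and 10.77, 10.83 and 10.88 in the Pint ASO. Its p53 siRNA arrays were all above and its Pint ASO arrays all below their controls. The changes were 0.31 (SE 0.055, adjusted p = 0.00415) and -0.40 (SE 0.061, adjusted p = 0.00177), and the difference was -0.71 (SE 0.082, adjusted p = 0.000347). A further probe set for Arsb, of lower signal, moved the same way, by 0.30 (adjusted p = 0.00351) with the p53 siRNA and -0.32 (adjusted p = 0.00502) with the Pint ASO. Ids, which desulfates heparan and dermatan sulfate, changed by -0.22 (SE 0.055, adjusted p = 0.023) with the p53 siRNA and -0.47 (SE 0.061, adjusted p = 0.00078) with the Pint ASO. Its p53 call was lost under 9 of 23 alternative settings, among them the fits without any 1 of the control siRNA arrays and without p53 siRNA replicate 1 or 3. Arsa, the sulfatide sulfatase, stood at -0.39 with the Pint ASO and -0.029 with the p53 siRNA. Sgsh and Galns, which act on heparan sulfate and keratan sulfate, did not pass either test, at -0.12 and -0.097 with the Pint ASO, although the difference for Galns did, at -0.22 (SE 0.067, adjusted p = 0.0467). This call was lost under 18 of 22 alternatives and, when single arrays were left out, was kept only without control siRNA replicate 3.

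The proteins of lipid breakdown had the lowest median of the role groups with the Pint ASO, -0.41, and 6 of 7 were called lower. Lipa (probe set 10467139, chr19:34492316-34527474), the acid lipase that frees cholesterol and fatty acids from lipoprotein lipids, read 11.56, 11.54 and 11.64 in the control siRNA, 11.77, 11.70 and 11.80 in the p53 siRNA, 11.62 and 11.54 in the control ASO and 10.80, 10.93 and 10.75 in the Pint ASO. The control groups overlapped, the p53 siRNA arrays lay slightly above them and the Pint ASO arrays far below. The Pint change was -0.75 (SE 0.066, adjusted p = 9.61e-05), or 59.3% of control, the p53 change 0.18 (SE 0.059, adjusted p = 0.0716), and the difference -0.93 (SE 0.088, adjusted p = 0.000108).

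Gm2a (probe set 10376208, chr11:55097985-55113029), the activator that presents ganglioside GM2 to beta-hexosaminidase, read 11.60, 11.54 and 11.63 in the control siRNA, 11.82, 11.75 and 11.80 in the p53 siRNA, 11.34 and 11.35 in the control ASO and 10.60, 10.69 and 10.71 in the Pint ASO. As for Arsb, the knockdowns lay on opposite sides of their controls with no overlap. The change was -0.68 (SE 0.053, adjusted p = 5.55e-05) with the Pint ASO and 0.20 (SE 0.047, adjusted p = 0.0175) with the p53 siRNA, and the difference was -0.88 (SE 0.071, adjusted p = 4.6e-05). The p53 call for Gm2a was lost without control siRNA replicate 1 or 2 and without p53 siRNA replicate 1 or 3, and the control ASO was itself below the control siRNA by 0.25.

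The other lipid genes had smaller changes. Npc2, the soluble carrier that hands cholesterol to the membrane protein Npc1, changed by -0.49 (SE 0.042, adjusted p = 8.45e-05) with the Pint ASO and 0.11 (SE 0.037, adjusted p = 0.0721) with the p53 siRNA. The acid sphingomyelinase Smpd1 stood at -0.41, the palmitoyl-protein thioesterase Ppt1 at -0.33 and Psap, the precursor of the saposin activators, at -0.23 with the Pint ASO, all called. Asah1, the acid ceramidase, was not called, at -0.14 (SE 0.079). The difference between the knockdowns passed the test for Lipa, Gm2a, Npc2, Smpd1 and Ppt1. For Ppt1 it was lost under 15 of 22 alternatives, among them the fits without any 1 of the control siRNA or p53 siRNA arrays.

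**Figure D2:**
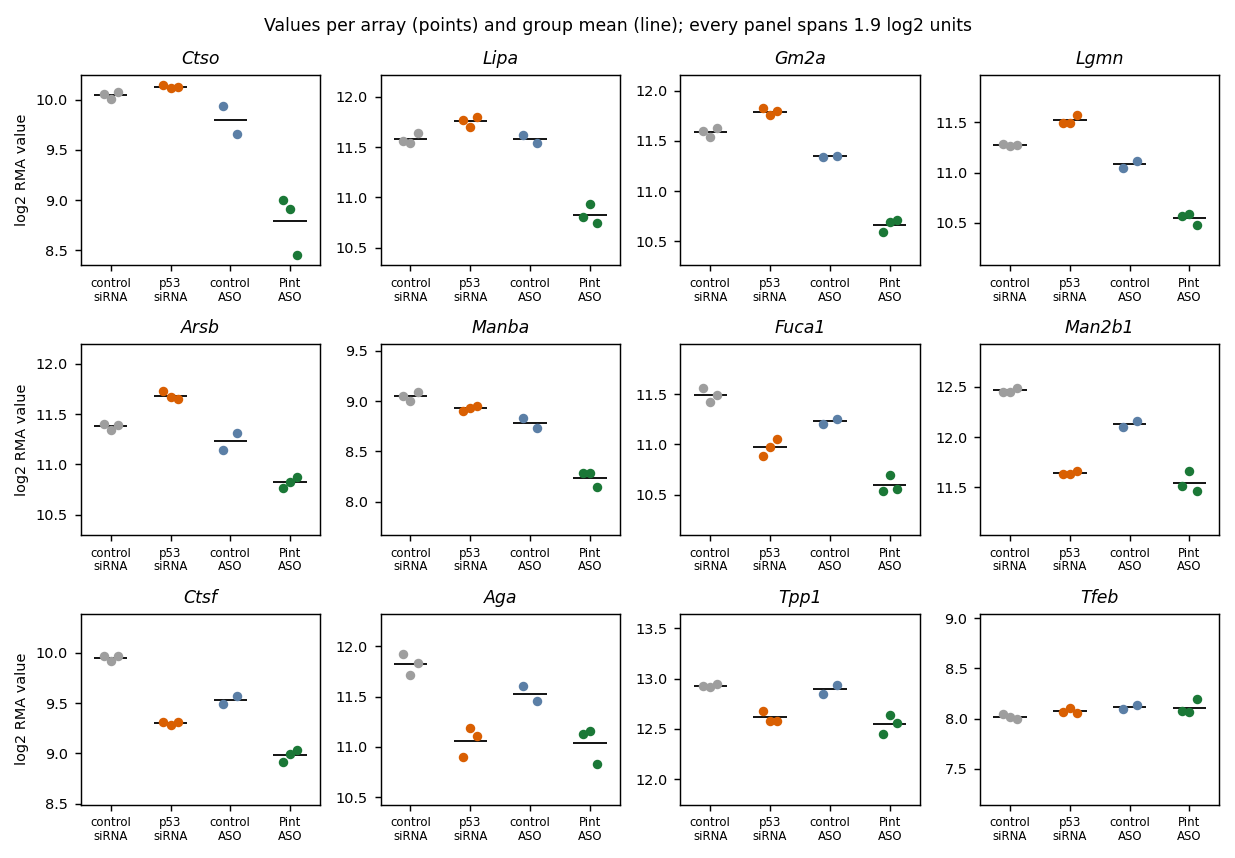
Log2 value (y axis) of 12 lysosomal genes on every array, with the 4 groups on the x axis, points for arrays and a line for the group mean; all panels have the same height in log2 units. The Pint ASO arrays lie below both control ASO arrays in every panel except Tfeb. The p53 siRNA arrays lie above their controls for Gm2a, Lgmn, Arsb, Lipa, Ctso and Tfeb. They lie below them for Fuca1, Man2b1, Ctsf, Aga, Tpp1 and Manba. The p53 changes of Lipa, Ctso, Tfeb and Manba did not pass the test.

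Of the 14 proteases, 9 were called lower with the Pint ASO, and 3 lower and 1 higher with the p53 siRNA. Ctso (probe set 10492699, chr3:81932601-81956725), a cysteine cathepsin, had the largest Pint change of the 52 genes. It read 10.05, 10.01 and 10.07 in the control siRNA, 10.14, 10.12 and 10.12 in the p53 siRNA, 9.94 and 9.66 in the control ASO and 9.01, 8.91 and 8.46 in the Pint ASO. The 3 Pint ASO arrays lay apart from all others, although they and the control ASO arrays were more spread than the siRNA arrays. The Pint change was -1.01 (SE 0.14, adjusted p = 0.00127), or 49.7% of control, the p53 change 0.082 (SE 0.13, adjusted p = 0.732), and the difference -1.09 (SE 0.19, adjusted p = 0.00374).

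Ctsf (probe set 10460468, chr19:4855165-4860918), another cysteine cathepsin, read 9.97, 9.92 and 9.97 in the control siRNA, 9.31, 9.28 and 9.31 in the p53 siRNA, 9.49 and 9.57 in the control ASO and 8.91, 8.99 and 9.03 in the Pint ASO. Arrays of 1 group were close together, and each knockdown was below its control. The change was -0.65 (SE 0.047, adjusted p = 1.77e-05) with the p53 siRNA and -0.55 (SE 0.052, adjusted p = 0.000154) with the Pint ASO, and between the controls it was -0.43 (SE 0.052, adjusted p = 0.00349). The p53 siRNA mean thus lay below the control ASO mean as well.

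Lgmn (probe set 10402268, chr12:102394082-102439728), an endopeptidase that cuts after asparagine and activates other cathepsins, read 11.29, 11.26 and 11.28 in the control siRNA, 11.50, 11.49 and 11.57 in the p53 siRNA, 11.05 and 11.12 in the control ASO and 10.56, 10.59 and 10.48 in the Pint ASO. It was above its control in each p53 siRNA array and below it in each Pint ASO array. The changes were 0.25 (SE 0.047, adjusted p = 0.00585) and -0.54 (SE 0.053, adjusted p = 0.000168), and the difference was -0.79 (SE 0.071, adjusted p = 8.25e-05).

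Tpp1 (probe set 10566529, chr7:105744811-105752282), a tripeptidyl peptidase, read 12.93, 12.91 and 12.94 in the control siRNA, 12.68, 12.58 and 12.58 in the p53 siRNA, 12.85 and 12.94 in the control ASO and 12.45, 12.64 and 12.56 in the Pint ASO. Both knockdowns were below their controls without overlap. The change was -0.31 (SE 0.058, adjusted p = 0.00461) with the p53 siRNA and -0.34 (SE 0.064, adjusted p = 0.0056) with the Pint ASO, and the control groups differed by -0.035. The Pint call was lost in a fit of the ASO groups alone.

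The aspartic protease Ctsd was likewise called in both comparisons, at -0.19 and -0.31, although its p53 call was lost without control siRNA replicate 1 or 3 and without p53 siRNA replicate 2. The cysteine cathepsins Ctsl, Ctsb and Ctsz and the dipeptidyl peptidase Ctsc were called lower with the Pint ASO alone, between -0.32 for Ctsl and -0.25 for Ctsz. The call for Ctsl (adjusted p = 0.0449) was lost under 19 of 23 alternative settings. For Ctsc the p53 change was 0.24 (SE 0.074, adjusted p = 0.0533), and the difference passed the test at -0.54 (SE 0.11, adjusted p = 0.00772). Ctsh, Ctsk, Ctss, Ctsa and Dpp7 were called with neither knockdown. Ctsh, a cathepsin with aminopeptidase activity, stood at -0.45 with the p53 siRNA and -0.34 with the Pint ASO, with SEs of 0.14 and 0.16. Ctss, an elastin-degrading cathepsin best known from antigen-presenting cells, had a signal close to the limit for testing, with a mean of 6.23 in the control siRNA, and stood at 0.095 with the Pint ASO. The collagenolytic Ctsk, the protective protein Ctsa and the dipeptidyl peptidase Dpp7 stood at -0.16, -0.052 and 0.15 with the Pint ASO and at 0.037, 0.067 and 0.025 with the p53 siRNA.

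Of the acid phosphatases, Acp2 was called lower with the Pint ASO at -0.33 (SE 0.067, adjusted p = 0.00847) and stood at -0.019 with the p53 siRNA. Acp5, the tartrate-resistant form known from osteoclasts, was not called, at -0.24 (SE 0.088) with the Pint ASO.

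Of the 6 membrane proteins, 3 were called lower with the Pint ASO, and the median was -0.17. Scarb2, the receptor that carries beta-glucocerebrosidase to the lysosome, changed by -0.45 (SE 0.085, adjusted p = 0.00542), and the tetraspanin Cd63 by -0.34 (SE 0.071, adjusted p = 0.00914). Lamp2, a heavily glycosylated protein of the lysosomal membrane, was called at -0.23 (SE 0.064, adjusted p = 0.0328), but this call was lost under 15 of 23 alternatives. Its partner Lamp1 did not pass, with -0.043 (SE 0.041) with the Pint ASO and 0.0013 (SE 0.036) with the p53 siRNA. The calcium channel Mcoln1 stood at 0.031. Npc1, which moves cholesterol out of the lysosome, was called higher with the p53 siRNA at 0.17 (SE 0.042, adjusted p = 0.0209) and stood at -0.12 with the Pint ASO, while the gene of its soluble partner Npc2 was called lower with the Pint ASO. The p53 call for Npc1 was lost under 9 of 23 alternatives, among them the 4 fits with the replicate number as a block, the fit of the siRNA groups alone and the fits without control siRNA replicate 1 or 3 or p53 siRNA replicate 3.

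The proton pump genes gave calls in both directions. With the p53 siRNA 3 of its 5 genes were called lower and all 5 changes were negative, from -0.33 for Atp6v1h to -0.070 for Atp6ap1. With the Pint ASO the membrane subunit Atp6v0a1 and the accessory subunit Atp6ap1 were called lower, at -0.34 and -0.21, and Atp6v1h higher. Atp6v1a (probe set 10439566, chr16:44085402-44139702), the catalytic subunit, read 12.16, 12.13 and 12.22 in the control siRNA, 11.97, 11.84 and 11.94 in the p53 siRNA, 12.15 and 12.09 in the control ASO and 12.09, 12.12 and 12.09 in the Pint ASO. Only the p53 siRNA arrays stood apart from their controls. The change was -0.25 (SE 0.049, adjusted p = 0.00643) with the p53 siRNA and -0.020 (SE 0.055, adjusted p = 0.855) with the Pint ASO. Atp6v0d1, which couples the membrane and the cytosolic sector, was called lower with the p53 siRNA at -0.18 and stood at 0.061 with the Pint ASO. Its p53 call was lost under 6 of 23 alternatives, among them median centring and the fits without control siRNA replicate 1 or 3. The difference of 0.24 (SE 0.061, adjusted p = 0.0212) was lost without control siRNA replicate 1 or 3 and without control ASO replicate 1.

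Atp6v1h (probe set 10344637, chr1:5082978-5163213), a regulatory subunit of the cytosolic sector, read 11.03, 10.90 and 11.002 in the control siRNA, 10.56, 10.66 and 10.73 in the p53 siRNA, 11.05 and 10.82 in the control ASO and 11.33, 11.29 and 11.10 in the Pint ASO. The p53 siRNA arrays were lowest, and the Pint ASO arrays were above both controls, the lowest of them only slightly. The changes were -0.33 (SE 0.084, adjusted p = 0.0256) and 0.31 (SE 0.094, adjusted p = 0.0483), and the difference was 0.64 (SE 0.13, adjusted p = 0.00682). The Pint call was lost under 17 of 23 alternatives and the p53 call under 9, while the difference was lost only with the stricter B over 3.

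The 12 pump genes tested outside the 52 were read beside these. With the p53 siRNA 3 of them were called lower, namely Atp6v0e2 at -0.38, Atp6v1c1 at -0.38 and Atp6v1e1 at -0.32, and 10 of the 12 changes were negative. With the Pint ASO Atp6v1b2 and Atp6v0b were called higher, at 0.31 and 0.20, and Atp6v0e2 lower, at -0.36.

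**Figure D3:**
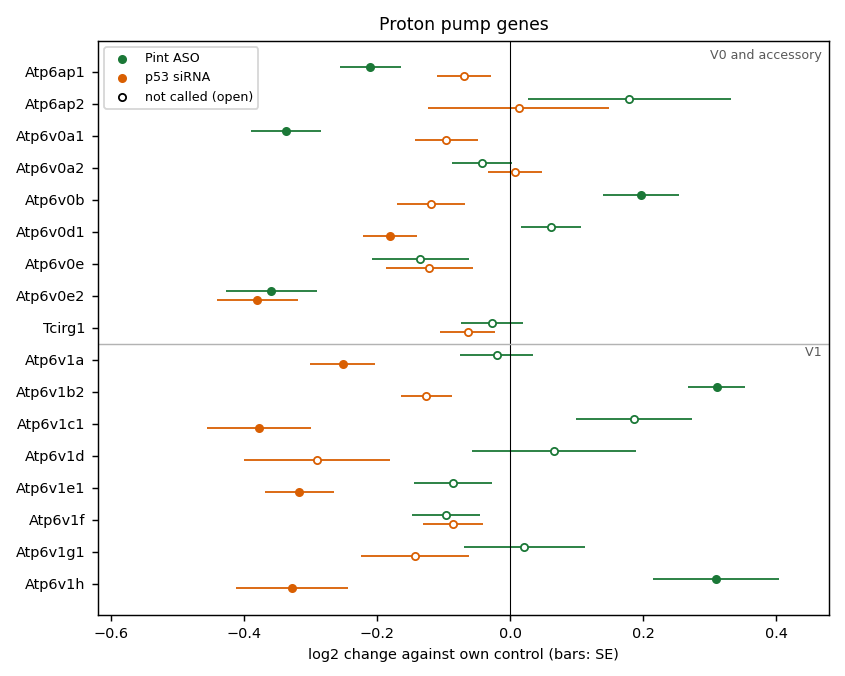
Log2 change (x axis, bars are the SE) of 17 proton pump genes with the Pint ASO (green) and the p53 siRNA (orange), membrane sector and accessory genes above the line and cytosolic sector below it; filled points passed the test. With the p53 siRNA 6 genes passed, all lower, while with the Pint ASO 3 passed lower (Atp6v0a1, Atp6ap1, Atp6v0e2) and 3 higher (Atp6v1h, Atp6v1b2, Atp6v0b).

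Tfeb (probe set 10445729, chr17:47737037-47792416) itself changed with neither knockdown in a way that passed the test. It read 8.05, 8.01 and 7.997 in the control siRNA, 8.06, 8.10 and 8.05 in the p53 siRNA, 8.09 and 8.14 in the control ASO and 8.07, 8.06 and 8.19 in the Pint ASO. All 11 arrays lay within a narrow range. The Pint ASO arrays overlapped their controls, and the p53 siRNA arrays lay just above theirs. The change was 0.052 (SE 0.047) with the p53 siRNA and -0.0054 (SE 0.053) with the Pint ASO. These are transcript levels, and the location of the protein, by which Tfeb is mainly controlled, was not measured.

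The promoter motifs were then read beside the calls. Among the 16 genes with CACGTG in a window, 9 were called lower with the Pint ASO, with a median change of -0.28, and among the 29 genes with a window and no such hexamer 22 were, with a median of -0.34. Of the 7 genes with TCACGTGA, whose runs are printed above, Ctsd and Gla were called lower, and the median of the 7 was -0.020, against 29 of 38 and a median of -0.34 for the others. Among the 7, Atp6v0d1, Atp6v1a and Ctsd were called lower with the p53 siRNA, and 5 of the other 38 were. The p53 half-site consensus stood in windows of Gusb, Smpd1, Lgmn and Tpp1, all called lower with the Pint ASO, and of Hexa, which was not. With the p53 siRNA Tpp1 was called lower and Lgmn higher. Of the 40 genes with a window and no half-site, 27 were called lower with the Pint ASO and 7 with the p53 siRNA. These counts describe the genes, and no test was applied to them.

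Further lysosome genes, 91 of them tested, were not among the 52. With the Pint ASO 21 (23.1%) were called lower and 12 (13.2%) higher, where 13.9% and 11.3% of all genes were. With the p53 siRNA 17 (18.7%) were lower and 4 (4.40%) higher, where 10.6% of all genes were lower and 10.6% higher. The same shares of all genes apply to each single list of these genes. The median change of the 91 was -0.050 with the Pint ASO and -0.071 with the p53 siRNA. Of 18 further hydrolases and activators, 9 were called lower with the Pint ASO, among them the sphingomyelinase-like Smpdl3b at -0.69 and Smpdl3a at -0.58, the lysosomal amidase Naaa at -0.37 and the phospholipase Pla2g15 at -0.31. Smpdl3b, Ifi30, Man2b2 and Hyal2 of that list were called lower with the p53 siRNA, at -0.66, -0.49, -0.38 and -0.36, and Naaa and Pla2g15 higher, at 0.20 and 0.15.

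Of 19 further membrane proteins, 5 were called lower and 3 higher with the Pint ASO, led by Cd68 at -0.47, Tmem106b at -0.35, Tpcn1 at -0.31 and Laptm4a at -0.30. With the p53 siRNA 5 were called lower and 1 higher, and Cd68, a glycoprotein abundant in phagocytes, had the largest change at -1.04 (SE 0.046, adjusted p = 1.41e-06), followed by Ostm1, Slc17a5 and Cln3 at -0.41, -0.35 and -0.30. The 16 sorting genes gave few calls, with Gga2 at -0.21 and Gnptab at -0.20 lower and Gga3 at 0.27 higher with the Pint ASO, and with Igf2r at -0.21 and Gnptg at -0.19 lower with the p53 siRNA.

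Of 21 Tfeb relatives and nutrient-sensing genes, 6 were called higher and 1 lower with the Pint ASO. The largest positive changes were those of Flcn, a regulator of Tfeb at the lysosome, at 0.42 and its binding partners Fnip1 and Fnip2 at 0.41 and 0.37, and Mitf, a Tfeb relative, was the gene called lower, at -0.38. Fnip1 and Fnip2 were also higher in the control ASO than in the control siRNA, by 0.31 and 0.31. Tsc1 and Rptor were called lower with the p53 siRNA, at -0.18 and -0.17. Among the 5 cathepsin inhibitors tested, Serpinb1a changed by 1.10 (SE 0.14, adjusted p = 0.000534) with the p53 siRNA and -1.27 (SE 0.16, adjusted p = 0.000577) with the Pint ASO, and Cst6 and Cst3 were lower with the Pint ASO at -0.37 and -0.32. Cstb was lower with the p53 siRNA at -0.23.

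**Figure D4:**
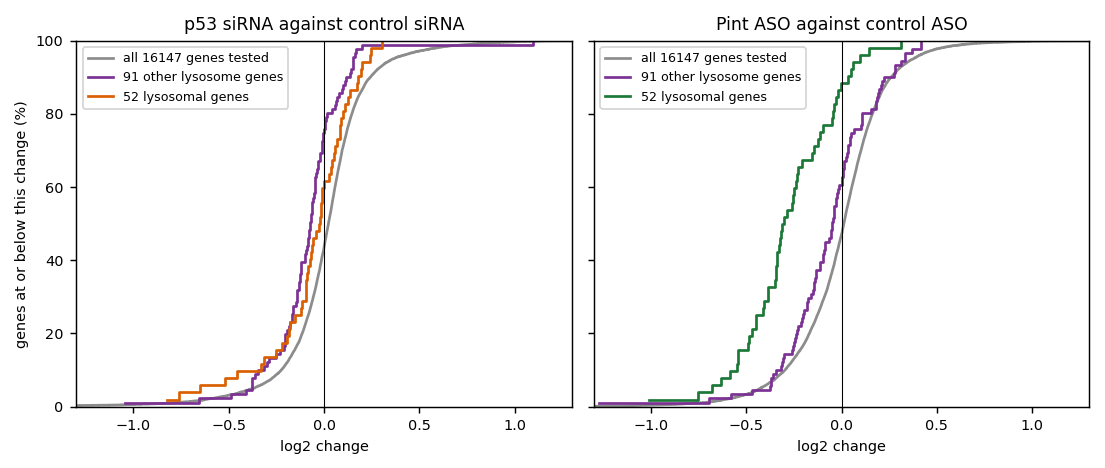
Share of genes (y axis, percent) with a log2 change at or below the value on the x axis, for the 52 lysosomal genes (orange for the p53 siRNA, green for the Pint ASO), the 91 other lysosome genes tested (purple) and all 16147 genes tested (grey); a few changes beyond the axis limits are not drawn. With the Pint ASO the green line lies left of the other lines over most of its course, with medians of -0.31, -0.050 and 0.012, while with the p53 siRNA the medians are -0.024, -0.071 and 0.023.

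Markers of the cells were set beside these results. With the Pint ASO the 12 fibroblast markers had a median change of -0.44, and their summed linear level ranged from 65000 to 67000, against 78200 to 78300 in the control ASO. With the p53 siRNA 6 of the 12 were called higher, with summed levels of 90200 to 90600 against 80700 to 82600. Vim, Fn1 and Fap were not called with either knockdown. Fap was the only 1 of the 12 with a positive Pint change, 0.18 (SE 0.060, adjusted p = 0.0615). The 13 macrophage and blood markers summed to 1310 to 1320 in the Pint ASO and 1340 to 1350 in the control ASO arrays, and to 1250 to 1260 in the p53 siRNA and 1320 to 1370 in the control siRNA arrays. Among them Fcgr3 was called higher, at 0.50, and Cd53 lower, at -0.33, with the Pint ASO. With the p53 siRNA Cd14 alone was called, at -0.51. The epithelial markers summed to 1070 to 1190 with the Pint ASO against 1210 to 1290. Of these Cdh1 alone was called, at -0.68. The endothelial markers summed to 779 to 798 against 634 to 693, but only Kdr was called higher, at 0.77, while Tek was called lower, at -0.17, and Cldn5 stood at -0.023. The part of the fibroblast marker shift in the lysosomal result was not tested.

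The calls held up unequally when the settings were varied. Under all 23 alternatives, including the study's stricter threshold of B over 3 (B is the log odds of a change), Fuca1, Man2b1, Manba, Lipa, Gm2a, Npc2, Ctsf and Lgmn kept their Pint call, and Fuca1, Man2b1 and Ctsf their p53 call. The difference between the knockdowns was fitted under 22 of these, since it needs all 4 groups, and was kept under those 22 for Arsb, Lipa, Gm2a, Npc2 and Lgmn. When single arrays were left out, 21 of the 34 Pint calls, 8 of the 14 p53 calls and 12 of the 21 difference calls were kept in every such fit. Without control ASO replicate 1 the Pint calls for Gla, Glb1, Aga, Arsa, Psap, Ctsc, Ctsl, Acp2, Lamp2 and Atp6ap1 were lost, and without control ASO replicate 2 those for Gla, Arsa, Psap, Ctsc, Ctsl, Ctsz, Lamp2, Cd63 and Atp6v1h. None of the called changes turned its sign under any alternative.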

How the data were processed

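Gene expression was measured on Affymetrix whole-transcript arrays hybridised with labelled cDNA from 300 ng of total RNA. The study names 1 array model in its main methods and another in its supplement. The deposited log2 intensities per probe set had been computed by the authors with RMA, which corrects background, normalizes between arrays and summarizes probes; the RMA version is not given in the sources used here. Probe sets were named through the platform annotation, and a gene with several was represented by the one of highest mean over all 11 arrays. Of 34760 probe sets, 26038 were tested, those with 2 or more arrays above a log2 value of 6 in any group.

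A single model over the 4 group means was fitted in limma 3.58.1 (R 4.3.3; empirical Bayes without trend), with Benjamini-Hochberg adjustment over all probe sets tested and a call at an adjusted p under 0.05. The fit left 7 residual degrees of freedom, and the number of arrays limits the precision. Whether replicates came from separate cultures is not in the labels, and the p-values cover only the spread among these samples, which may be technical. Scripts were tested on simulated data.

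Every gene is named. Values per array are given for the 8 called genes of largest change in each knockdown, the 6 of largest difference, those called in opposite directions, and Tfeb. Of each list of other lysosome genes, up to 4 called genes per knockdown are named, with a few more chosen after their values were seen. The 52 genes, the lists and the markers were chosen with earlier results of these data known. The fit was repeated with other filters, centring, normalization, variance trend, representation of genes, thresholds, sample sets and replicate blocks, and without each array.

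Replicate numbers were not used as pairs. Deviations of siRNA arrays of the same number correlated at -0.284, -0.181 and -0.0371. The control ASO arrays carry other numbers in their titles than in their descriptions, with correlations of -0.0463 and -0.420 by titles and of 0.420 and 0.375 by descriptions.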

Additional observations from a re-analysis of the deposited data

Results flagged for a closer look

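The 2 knockdowns had effects that differed by a test of the difference itself (limma, Pint effect minus p53 effect, adjusted p under 0.05) for 21 of the 52 lysosomal genes. All values are log2 differences. The negative ones were Ctso (-1.09), Lipa (-0.93), Gm2a (-0.88), Lgmn (-0.79), Arsb (-0.71), Npc2 (-0.60), Ctsc (-0.54), Smpd1 (-0.49), Cd63 (-0.43) and Manba (-0.42). Smaller negative differences were those of Naglu (-0.37), Gla (-0.36), Gusb (-0.34), Acp2 (-0.31), Ctsz (-0.29), Npc1 (-0.29), Atp6v0a1 (-0.24), Ppt1 (-0.23) and Galns (-0.22). The positive ones were those of the pump genes Atp6v1h (0.64) and Atp6v0d1 (0.24).

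Npc1 and Galns entered this list without a Pint call of their own, with Pint changes of -0.12 and -0.097. Atp6v0d1 entered it with a p53 call of -0.18. Of 22 alternatives, the difference for Galns was lost under 18, that for Atp6v0a1 under 17, that for Naglu (adjusted p = 0.0416) under 16, and those for Ppt1 and Acp2 under 15 each. Those for Atp6v0d1, Ctsz and Npc1 were lost under 8, 6 and 3. No explanation of these differences was tested.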

How the results depend on the processing

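No called change turned its sign under any alternative, and several counts moved. A threshold of B over 3 left 0 higher and 3 lower with the p53 siRNA, and 0 and 8 with the Pint ASO. It left 0 and 5 for the difference, and 1 lower between the controls. The shares of all genes higher and lower were 2.4% and 3.25% with the p53 siRNA and 1.79% and 2.74% with the Pint ASO. They were 2.2% and 3.03% for the difference, and 0.272% were lower between the controls. In a fit of the compared groups alone, 0 were higher and 16 lower with the Pint ASO, and 0 lower between the controls. That fit called 4.15% of all genes higher and 5.46% lower with the Pint ASO, and 0.0929% lower between the controls. Median centring gave 6 lower with the p53 siRNA, where 8.34% of all genes were lower. It also gave 0 higher with the Pint ASO, 1 positive difference and 2 lower between the controls, where 10.3%, 9.53% and 1.17% of all genes were. A further quantile normalization gave 8 higher with the p53 siRNA, where 12.7% of all genes were higher. It also gave 2 higher with the Pint ASO and 4 positive differences, where 13.2% and 12.5% of all genes were. A variance trend gave 7 higher with the p53 siRNA, 4 positive differences, and 1 higher and 9 lower between the controls. The matching shares of all genes were 11.4%, 12.7%, 4.06% and 3.09%. Without a filter on low values 0 were higher with the Pint ASO and 2 lower between the controls, where 7.93% and 1.14% of all genes were.

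A replicate block by shared numbers left 29 (titles) and 30 (descriptions) lower and 0 higher with the Pint ASO. It left 1 positive difference by titles, and 1 lower between the controls. Of all genes it called 10.3% (titles) and 11% (descriptions) lower and 7.84% and 9.18% higher with the Pint ASO. By titles 8.73% had a positive difference, and 0.576% (titles) and 0.799% (descriptions) were lower between the controls. A block within each arm, chosen after seeing the data, gave by titles 1 higher and 5 lower with the p53 siRNA, 0 higher and 12 lower with the Pint ASO, and 1 positive and 7 negative differences. By descriptions it gave 2 higher with the p53 siRNA, 0 higher and 19 lower with the Pint ASO, and 1 positive and 9 negative differences. The labels show only that arrays share a number, and what these counts reflect was not tested. Over all genes, the block within each arm called 4.19% lower and 2.69% higher with the Pint ASO by titles. By descriptions it called 7.43% lower and 5.9% higher. With the p53 siRNA it called 5.37% higher and 5.85% lower by titles, and 7.48% higher by descriptions. The difference was positive for 4.39% and negative for 5.43% by titles, and for 7.41% and 7.93% by descriptions.

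Leaving out single arrays gave 2 to 6 higher and 6 to 12 lower with the p53 siRNA, 0 to 1 higher and 23 to 33 lower with the Pint ASO, 1 to 3 positive and 12 to 20 negative differences, and 0 higher and 1 to 5 lower between the controls. Of all genes, these fits called 7.8% to 10.9% higher and 7.81% to 10.8% lower with the p53 siRNA. With the Pint ASO they called 7.03% to 10.6% higher and 8.64% to 13.3% lower. The difference was positive for 8.51% to 11.3% and negative for 9.89% to 11.8%. Between the controls 0.555% to 2.46% were higher and 0.58% to 2.04% lower. The cause of the shifts in the counts was not tested. The control ASO has only 2 arrays, which limits the precision of every Pint change. Calls near the threshold were the least settled: those for Ctsl, Atp6v1h and Lamp2 with the Pint ASO were lost under 19, 17 and 15 of 23 alternatives.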
